A study of Homo sapiens with 10 samples.

Results

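A set of 10 Wnt pathway genes was followed through nanopore RNA sequencing of 7 ovarian cancer cell lines: the ligands WNT5A and WNT7A, the secreted antagonists DKK1, DKK3 and SFRP1, the receptors FZD7 and LGR5, the cytoplasmic and nuclear effectors CTNNB1 and TCF7L2, and the feedback target AXIN2. These members were chosen by gene name, a transcript belonging to a member when any of the names in its annotation entry was that member's, which took 10 of 57110 gene identifiers and 41 of 99493 transcripts. COV362, COV504, OVKATE, OVMANA, OVTOKO and SK-OV-3 gave 1 PromethION library each, and IGROV-1 gave 2 PromethION and 2 MinION libraries. The labels name no treatment for these established lines. PromethION and MinION are 2 models of nanopore sequencer, and the series served to benchmark a transcript quantification package. Nothing in the labels says that the IGROV-1 replicates came from separate cultures, so the p-values below measure only the spread between these libraries, which may be technical.

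Wnt proteins are secreted lipid-modified ligands that bind Frizzled receptors. In the canonical branch this stops the destruction complex, built on the AXIN scaffolds, from degrading beta-catenin, which then enters the nucleus and joins TCF/LEF factors on target genes. Secreted antagonists hold the pathway back outside the cell, LGR receptors bind R-spondins and raise sensitivity to Wnt, and targets such as AXIN2 feed back on the signal. Beta-catenin mutations are known in ovarian carcinoma mainly from the endometrioid type.

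Each library held between 1729782 and 3666224 counts, and levels are given as CPM, the count scaled to a common library total. A count of 0 allows up to 3 counts, which is 0.64 CPM over both IGROV-1 PromethION libraries and 1.18 to 1.73 CPM in a lone library, for counting error only. A fold given as at least divides the measured level by this limit and leaves out the counting error of the measured level itself. PAX8, a marker of Mullerian epithelium, lay between 84.1 and 340 CPM in all 10 libraries, but only 1 of the 4 Mullerian and ovarian carcinoma markers reached 1 CPM in OVTOKO and in each IGROV-1 library, against 2 to 4 in the other 5 lines. Of the leukocyte markers CD3E was at 0 and PTPRC at most 0.44 CPM, while LYZ was 12.4 CPM in OVKATE and at most 1.33 elsewhere. CD68 could not be judged, because its identifier is joined with SENP3 and EIF4A1 (347 to 1065 CPM). The mitochondrial ribosomal RNAs took 9.13% and 10.9% of counts in the IGROV-1 PromethION libraries against 1.01% to 3.31% in the other 8. Every library is a bulk sample, so more cells expressing a gene and more RNA per cell cannot be told apart.

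Each line was compared with the 2 IGROV-1 PromethION libraries, so all 6 comparisons share the same reference. A member was called when its adjusted p was under 0.05 (edgeR quasi-likelihood test, Benjamini-Hochberg over 13030 genes), and log2 changes carry their standard error (SE). The SE is the size of the log2 change divided by the square root of the F statistic of that test. At low counts it can be smaller than counting error alone. In OVMANA 2 members were higher and 4 lower, where 18.9% of all genes tested were higher and 16.5% lower (35.4% together). OVKATE had 2 members higher and 3 lower (all genes 26.8% and 22.4%, 49.2% together). OVTOKO had 4 higher and 2 lower (18.2% and 15.9%, 34.1% together). SK-OV-3 had 6 higher and 2 lower (22.0% and 19.8%, 41.8% together). COV362 had 5 higher and 1 lower (23.7% and 18.8%, 42.5% together). COV504 had 5 higher and 4 lower (24.0% and 19.6%, 43.5% together). All 10 passed the filter on low counts. DKK1, LGR5, SFRP1 and FZD7 did so only through lines in which they were above IGROV-1, so these shares are a description. A lone library has no replicate of its own and was assumed to vary like the IGROV-1 replicates. That spread rests on 2 residual degrees of freedom, from the replicate difference on each instrument. Replicate 2 minus replicate 1 correlated between instruments at r = 0.4 over 9376 genes. The labels do not say whether equal replicate numbers share a culture. If they do, the differences on both instruments are not independent and the p-values may be too small. Scaling by TMM moved the log2 changes against plain CPM ratios by -0.32 in OVKATE and -0.22 in SK-OV-3, and by less than 0.1 in the other 4 lines. Leaving out DKK1 and LGR5 but keeping SFRP1 and FZD7, 13 of the 35 calls held under every alternative fit tried and 19 were lost under DESeq2. Below, the range of adjusted p over the alternatives follows a call that some alternative ended.

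**Figure D1:**
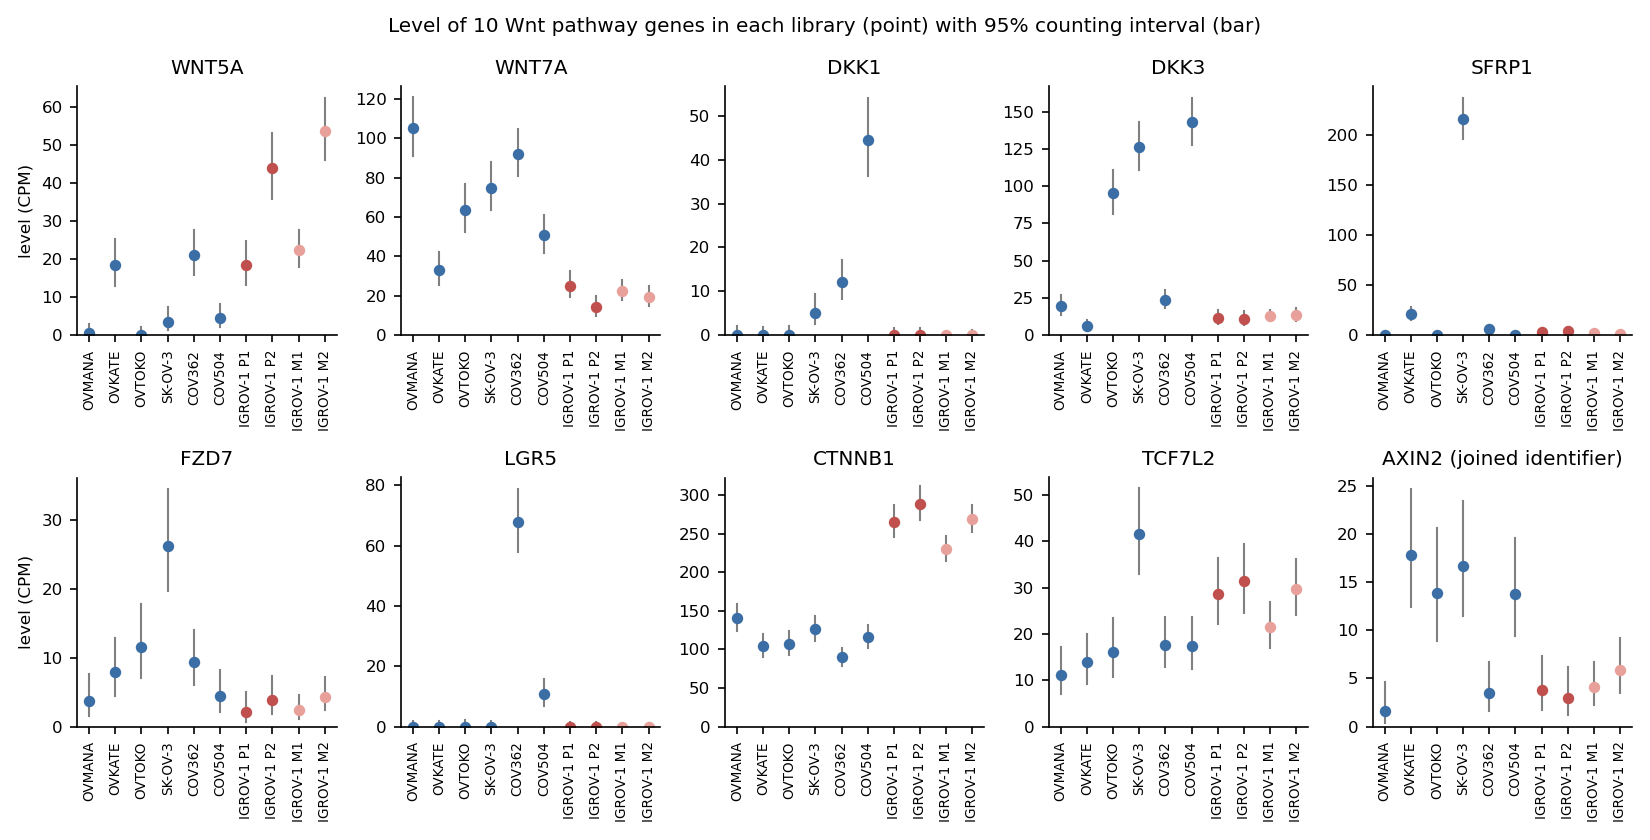
Level of each member in CPM in each of the 10 libraries; IGROV-1 P1 and P2 are the PromethION replicates and M1 and M2 the MinION replicates. DKK1 appears in SK-OV-3, COV362 and COV504 and LGR5 in COV362 and COV504, while CTNNB1 is highest in the 4 IGROV-1 libraries (230.5 to 289 CPM).

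The ligand WNT5A, which mostly signals without beta-catenin, was highest in IGROV-1. The gene spans 55465715 to 55489945 on the minus strand of chromosome 3 (GRCh38, as for all positions here). It measured 18.4 and 43.8 CPM in the IGROV-1 PromethION replicates (31.1 ± 18.0, SD, n = 2), 22.4 and 53.8 in the MinION replicates, 21.2 in COV362, 18.3 in OVKATE, 4.45 in COV504, 3.55 in SK-OV-3, 0.53 (1 count) in OVMANA and 0 in OVTOKO. COV362 and OVKATE thus fell at the level of the lower IGROV-1 replicate, and the other 4 lines lay below both. WNT5A was at least 17.9-fold lower in OVTOKO (adjusted p = 0.0134, edgeR) and stood at 0.0172 of the IGROV-1 level in OVMANA (95% counting interval 0.000433 to 0.0974). It fell by 3.34 ± 0.93 (SE) on the log2 scale in SK-OV-3 and by 2.87 ± 0.86 in COV504. These 4 calls were lost without either MinION replicate, with adjusted p ranging up to 0.0701, 0.0693, 0.0737 and 0.0817 over the alternatives for OVMANA, OVTOKO, SK-OV-3 and COV504 (edgeR).

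The IGROV-1 replicates themselves differed in WNT5A. Replicate 2 held 2.39 times the level of replicate 1 on PromethION (95% counting interval 1.65 to 3.49) and 2.40 times on MinION (1.84 to 3.16). Only 43 of the 9376 genes that averaged 5 CPM or more in IGROV-1 (0.459%) were at least 2 times higher in replicate 2 on both instruments, and 12 (0.128%) in replicate 1. With both replicates the WNT5A log2 changes in OVKATE and COV362 were -1.06 ± 0.65 and -0.51 ± 0.60 and not called. Without PromethION replicate 1, the lower one, WNT5A fell by 1.56 in OVKATE and by 1.01 in COV362. Without PromethION replicate 2, the higher one, the COV362 change was 0.25. WNT5A was read from 2 start sites 2303 bases apart, and the downstream one took 29.6% of its counts in COV362 (95% interval 19.1 to 42.8) against 4.8% and 8.1% in the IGROV-1 PromethION replicates, with no usage call (adjusted p = 0.76, edgeR with Simes).

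**Figure D2:**
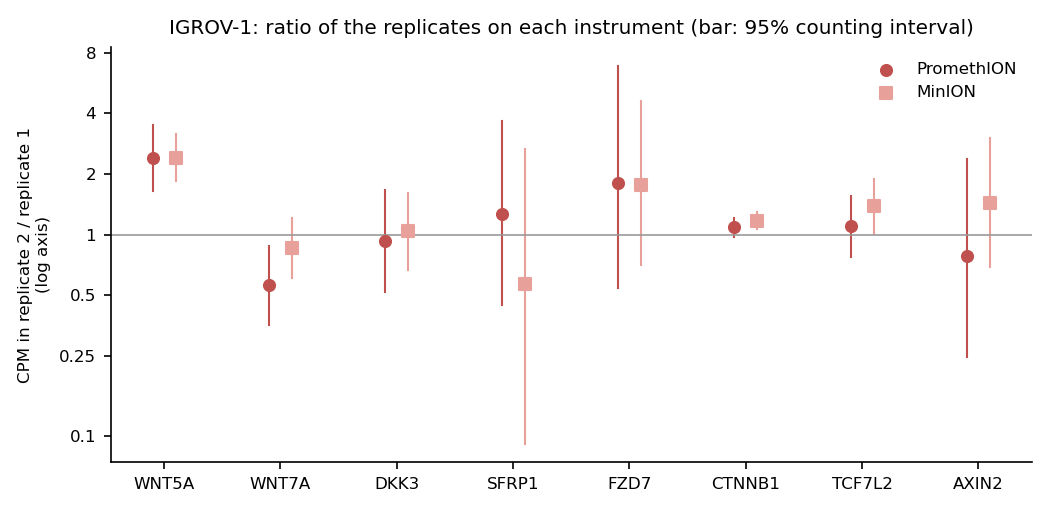
Level in replicate 2 divided by that in replicate 1 for the members in IGROV-1, on a log axis, by instrument, with 95% counting intervals. WNT5A stands at 2.39 and 2.40, and WNT7A at 0.562 and 0.86.

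WNT7A, a ligand of the Mullerian duct in development, ran the other way. The gene spans 13816258 to 13880121 on the minus strand of chromosome 3. It measured 25.2 and 14.2 CPM in the IGROV-1 PromethION replicates, 22.6 and 19.5 in the MinION replicates, 105 in OVMANA, 92.1 in COV362, 75.0 in SK-OV-3, 63.6 in OVTOKO, 50.7 in COV504 and 33.1 in OVKATE. Every other line therefore lay above both IGROV-1 replicates. WNT7A rose by 2.48 ± 0.28 (SE) on the log2 scale in OVMANA (adjusted p = 0.000294, edgeR), by 2.26 ± 0.28 in COV362, by 1.77 ± 0.30 in OVTOKO, by 1.7 ± 0.29 in SK-OV-3 and by 1.28 ± 0.30 in COV504. The COV504 call was lost under DESeq2 and without MinION replicate 1 (adjusted p 2.09e-06 to 0.132 over the alternatives). In OVKATE the change of 0.45 ± 0.33 was not called, and without PromethION replicate 1, the higher one, it was 0.92.

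DKK1, which blocks the LRP5/6 co-receptors, was detected in 3 lines. It measured 44.5 CPM in COV504 (100 counts), 12.1 in COV362 (31 counts) and 5.06 in SK-OV-3 (10 counts), and 0 in OVMANA, OVKATE, OVTOKO and all 4 IGROV-1 libraries. The difference from IGROV-1 was at least 69.2-fold in COV504, at least 18.9-fold in COV362 and at least 7.88-fold in SK-OV-3. DKK1 entered the test only through these lines, so no p is given in support, and its call in SK-OV-3 was lost under DESeq2. Of 5 fibroblast markers, the collagen gene COL1A2 was high in the same lines, at 57.2, 429 and 31.6 CPM in SK-OV-3, COV362 and COV504 against at most 0.43 in the other 7 libraries. The summed level of the 5 was 329.7, 434.1 and 113.9 CPM there against 0.6 to 30.2 elsewhere, with 3, 2 and 2 of 5 at 1 CPM or more against at most 1. The other 4 did not separate the same lines: COL1A1 was 4.31 CPM in COV362 and 30.2 in OVKATE, LUM was high in SK-OV-3 alone (52.7 CPM), and DCN and PDGFRB were under 1 CPM in every library. The part of these markers in the result was not tested.

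The RefSeq promoter of DKK1 on GRCh38.p14 (chr10:52314031-52314280, plus strand) is printed because DKK1 passed from 0 to 44.5 CPM between lines and is a textbook target of beta-catenin. Capitals mark CTTTGAA, a form of the TCF/LEF core, and TATAAA, both searched on both strands.
DKK1 promoter: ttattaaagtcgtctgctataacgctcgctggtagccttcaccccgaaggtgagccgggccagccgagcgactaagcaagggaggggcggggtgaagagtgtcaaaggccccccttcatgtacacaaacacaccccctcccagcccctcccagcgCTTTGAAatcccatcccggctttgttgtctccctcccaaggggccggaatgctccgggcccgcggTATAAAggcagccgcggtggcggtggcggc
CTTTGAA occurred in 3.80% and TATAAA in 10.7% of 35116 RefSeq promoters of the same length, and the alternative core CTTTGAT (2.26%) was not in this window. The match describes letters only. DKK1 itself spans 52314296 to 52317657 on chromosome 10 and has 4 exons.

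DKK3, a divergent Dickkopf relative, fell into high and low lines. The gene spans 11963106 to 12009769 on the minus strand of chromosome 11. It measured 11.5 and 10.7 CPM in the IGROV-1 PromethION replicates, 12.8 and 13.3 in the MinION replicates, 143 in COV504, 126 in SK-OV-3, 95.4 in OVTOKO, 23.5 in COV362, 19.2 in OVMANA and 5.94 in OVKATE. COV504, SK-OV-3 and OVTOKO were far above IGROV-1, and only OVKATE lay below both replicates. By CPM the OVKATE level was 0.533 of that in IGROV-1, with a 95% counting interval of 0.259 to 1.01 that included 1. DKK3 rose by 3.6 ± 0.19 (SE) on the log2 scale in COV504 (adjusted p = 5.27e-06, edgeR), by 3.27 ± 0.20 in SK-OV-3 and by 3.17 ± 0.21 in OVTOKO, and these held under all 11 alternatives. The rise of 1.12 ± 0.24 in COV362 was lost under DESeq2 only (adjusted p up to 0.274). The rise of 0.85 ± 0.27 in OVMANA (adjusted p = 0.0404) was lost under 7 of 11 alternatives (0.0306 to 0.485). In OVKATE DKK3 fell by 1.2 ± 0.34 (adjusted p = 0.0193), lost under DESeq2 and without PromethION replicate 1 (0.00661 to 0.346). DKK3 was read from 2 start sites 288 bases apart, and the downstream one took 18.1% of its counts in COV362 and 9.3% in COV504 against 1.2% and 2.5% in IGROV-1 PromethION, with no usage call (adjusted p = 0.267 and 0.759, edgeR with Simes).

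SFRP1, which binds Wnt proteins directly, had its highest level in SK-OV-3. The gene spans 41261958 to 41309497 on the minus strand of chromosome 8. It measured 215 CPM there, 20.8 in OVKATE, 6.27 in COV362, 3.42 and 4.30 in the IGROV-1 PromethION replicates, 1.64 and 0.93 in the MinION replicates, 0.58 (1 count) in OVTOKO and 0 in OVMANA and COV504. SK-OV-3 stood far above every other library. SFRP1 passed the filter on low counts only through lines above IGROV-1, so its p-values are a description. By CPM the SK-OV-3 level was 55.8 times that of IGROV-1 (95% counting interval 34.9 to 95.1). After TMM scaling the SK-OV-3 level was 191 CPM, and the rise was 5.56 ± 0.26 (SE) on the log2 scale (adjusted p = 3.71e-06, edgeR). In OVKATE SFRP1 rose by 2.11 ± 0.36 (SE) on the log2 scale, a call lost under DESeq2 (adjusted p up to 0.0835). SFRP1 was at least 2.40-fold lower in OVMANA and at least 2.89-fold lower in COV504 (adjusted p = 0.0147 and 0.00729, edgeR), both lost under DESeq2, and the OVMANA call also against all 4 IGROV-1 libraries (up to 0.127 and 0.0772).

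FZD7, a Frizzled receptor, was at most 26.3 CPM. The gene spans 202034587 to 202038445 on the plus strand of chromosome 2 and has 1 exon. It measured 2.14 and 3.87 CPM in the IGROV-1 PromethION replicates, 2.45 and 4.33 in the MinION replicates, 26.3 in SK-OV-3, 11.6 in OVTOKO, 9.40 in COV362, 7.91 in OVKATE, 4.45 in COV504 and 3.74 in OVMANA. SK-OV-3 was apart from all, and OVMANA lay between the IGROV-1 replicates. FZD7 passed the filter on low counts only through lines above IGROV-1, so its p-values are a description. FZD7 rose by 2.88 ± 0.44 (SE) on the log2 scale in SK-OV-3 (adjusted p = 0.00117, edgeR), by 2.01 ± 0.53 in OVTOKO and by 1.67 ± 0.51 in COV362. All 3 calls were lost under DESeq2 (adjusted p up to 0.154, 0.458 and 0.555), and the COV362 call under 4 of 11 alternatives, the OVTOKO call also without MinION replicate 1.

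LGR5, the R-spondin receptor known from intestinal stem cells, was detected in COV362 and COV504. The gene spans 71439770 to 71586310 on the plus strand of chromosome 12. It measured 67.8 CPM in COV362 (173 counts) and 10.7 in COV504 (24 counts) and was at 0 in the other 8 libraries. Both lines lay above the most that a count of 0 allows in any other library. LGR5 was at least 105-fold higher in COV362 and at least 16.6-fold higher in COV504 than in IGROV-1. It entered the test only through these lines, so no p is given in support.

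**Figure D3:**
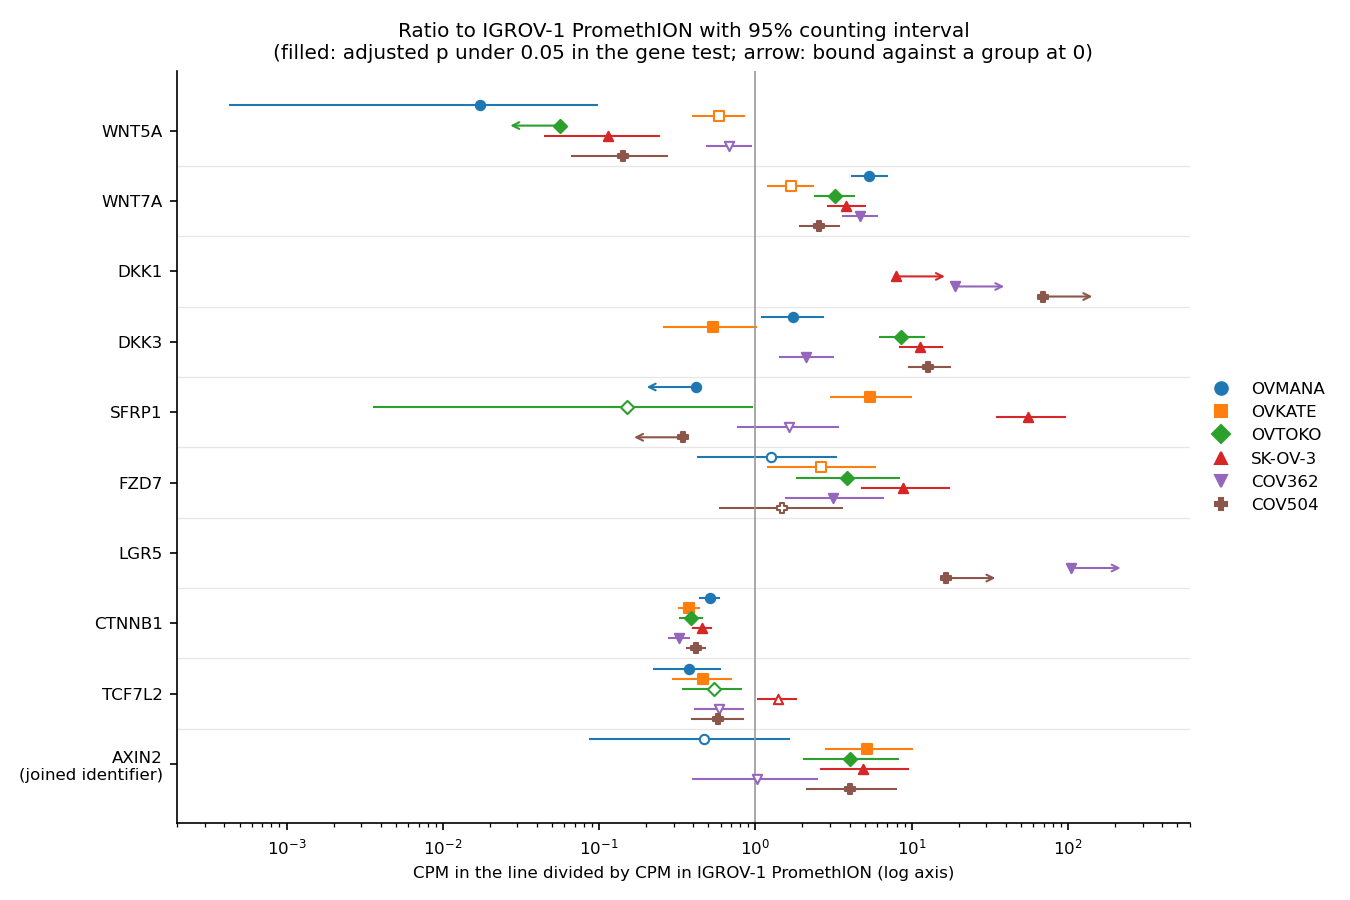
CPM in each line divided by the IGROV-1 PromethION level, on a log axis, with 95% counting intervals; filled symbols had an adjusted p under 0.05 and arrows mark bounds against a group at 0. CTNNB1 lies below 1 in all 6 lines (0.325 to 0.509), and WNT7A above 1 in all 6 (1.68 to 5.34).

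CTNNB1, which encodes beta-catenin, was lower in every line than in IGROV-1. The gene spans 41194910 to 41240453 on the plus strand of chromosome 3. It measured 266 and 289 CPM in the IGROV-1 PromethION replicates (277 ± 16.2, SD, n = 2), 230.5 and 269 in the MinION replicates, 141 in OVMANA, 126 in SK-OV-3, 116 in COV504, 108 in OVTOKO, 104 in OVKATE and 90.1 in COV362. No line reached the lowest IGROV-1 library. By CPM the lowest ratio to IGROV-1 was in COV362 (0.325) and the highest in OVMANA (0.509). On the log2 scale after TMM scaling, CTNNB1 fell by 1.58 ± 0.17 (SE) in COV362 (adjusted p = 0.000234, edgeR), by 1.71 ± 0.17 in OVKATE, where the scaling added to the fall, and by 0.91 ± 0.17 in OVMANA. CTNNB1 was 1 of the 342 genes (2.62%) called lower in all 6 lines, beside 2.69% called higher in all 6. In OVMANA the call was lost under DESeq2 (adjusted p = 0.101, range 0.000518 to 0.101), and the other 5 calls held under all 11 alternatives. With the mitochondrial ribosomal RNAs left out of the totals, the IGROV-1 PromethION levels were 292 and 324 CPM. The cadherin CDH1, whose protein binds beta-catenin at the membrane, was at 0 in all 4 IGROV-1 libraries. It was 1.57 to 5.06 CPM in COV362, OVTOKO and SK-OV-3 and 59.2 to 214 in COV504, OVKATE and OVMANA. The cadherin CDH2 was at most 0.43 CPM in IGROV-1 but also at 0 in OVMANA and OVTOKO, and 51.7 to 174 in SK-OV-3, OVKATE, COV362 and COV504. Like CDH1, EPCAM, KRT7 and KRT8 were lower in every IGROV-1 library than in every line, but KRT18 and KRT19 overlapped. KRT18 was 244 to 1080 CPM in IGROV-1 and 309 to 4627 in the lines, and KRT19 140 to 177 and 0.58 to 1833. Of the 6 epithelial markers, 3 to 4 were at 1 CPM or more in the IGROV-1 libraries (sum 404.0 to 1269.6 CPM) and 5 to 6 in the lines (474.0 to 9649.6), and their part was not tested.

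CTNNB1 was read as 3 transcripts with the same 2343-nt coding sequence and different 3′ ends of the RNA. ENST00000349496 keeps its last exon whole, ENST00000396183 removes a 464-nt intron after the stop codon and ENST00000396185 a 305-nt one. The share of ENST00000396185 was 33.6% in OVMANA, 32.1% in OVTOKO, 30.1% in COV504, 20.8% in SK-OV-3, 15.3% in OVKATE and 10.1% in COV362, against 12.6% and 10.6% in the IGROV-1 PromethION replicates. OVMANA, OVTOKO and COV504 were thus the high lines. Transcript usage differed in 1 of the 5 members tested in OVMANA, CTNNB1 (adjusted p = 0.0216, edgeR with Simes), and in COV504 (adjusted p = 0.0434), where 2.79% and 2.52% of 4730 genes did. In OVTOKO the CTNNB1 adjusted p was 0.0608, and 0 of 5 members passed there (1.37% of all genes), with 2 at an unadjusted p under 0.05. In OVKATE, SK-OV-3 and COV362 0 of 5 passed (4.69%, 2.01% and 2.75% of all genes), with 1, 1 and 2 at an unadjusted p under 0.05. Both CTNNB1 calls were lost when only PromethION libraries were fitted and when any replicate was left out.

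**Figure D4:**
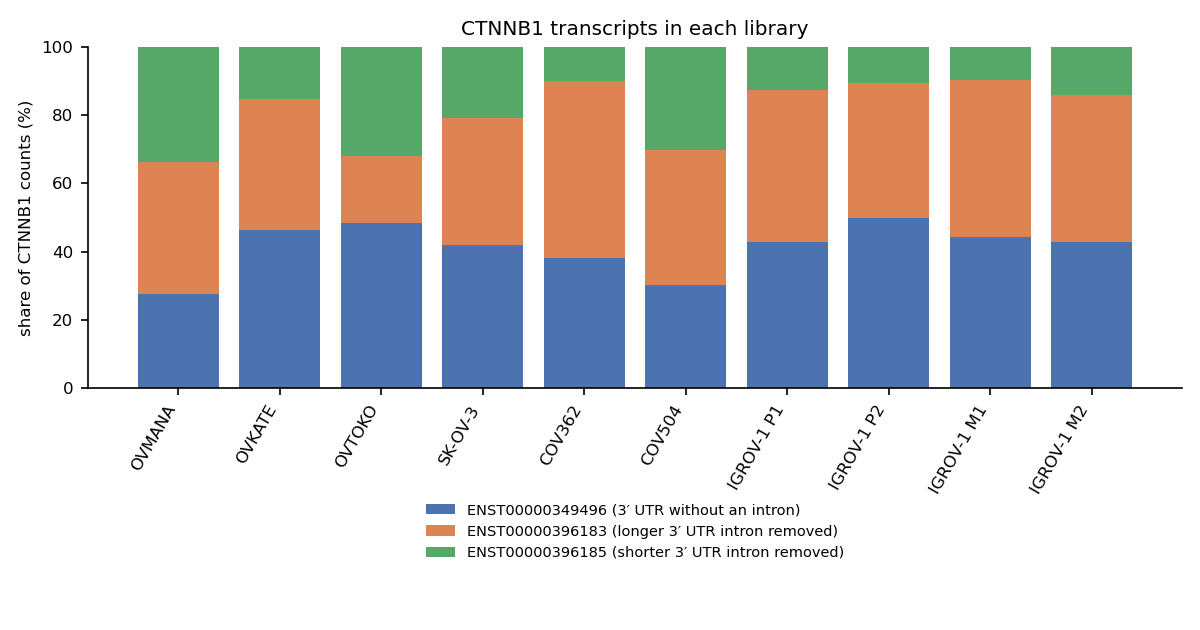
Share of CTNNB1 counts in percent taken by each of the 3 transcripts in each library; P1, P2, M1 and M2 are the IGROV-1 PromethION and MinION replicates. The share of ENST00000396185 is 30.1% to 33.6% in OVMANA, OVTOKO and COV504 and 9.9% to 14.2% in IGROV-1.

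TCF7L2, one of the TCF/LEF factors that join beta-catenin on DNA, was highest in SK-OV-3. The gene spans 112950250 to 113167678 on the plus strand of chromosome 10. It measured 28.6 and 31.4 CPM in the IGROV-1 PromethION replicates, 21.6 and 29.7 in the MinION replicates, 41.5 in SK-OV-3, 17.6 in COV362, 17.35 in COV504, 16.2 in OVTOKO, 13.85 in OVKATE and 11.2 in OVMANA. The 5 lower lines lay below both IGROV-1 replicates. TCF7L2 fell by 1.41 ± 0.30 (SE) on the log2 scale in OVKATE, by 1.35 ± 0.32 in OVMANA and by 0.87 ± 0.28 in COV504 (adjusted p = 0.00481, 0.0119 and 0.0349, edgeR). The first 2 calls were lost under DESeq2 (up to 0.312 and 0.423), and the COV504 call under 7 of 11 alternatives (0.0295 to 0.665).

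TCF7L2 is spliced in several ways, and 3 cassette exons are printed because their use differed between libraries. All are on GRCh38, plus strand: cassette exon 3 at chr10:113158667-113158717, cassette exon 4 at chr10:113159920-113159992 and cassette exon 5 at chr10:113160619-113160691. Capitals in exons 4 and 5 mark the 26 of 73 positions at which they differ, aligned without gaps.
Cassette exon 3: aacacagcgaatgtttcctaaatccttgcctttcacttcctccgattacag
Cassette exon 4: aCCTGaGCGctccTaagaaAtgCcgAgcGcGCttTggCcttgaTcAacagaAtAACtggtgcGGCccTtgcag
Cassette exon 5: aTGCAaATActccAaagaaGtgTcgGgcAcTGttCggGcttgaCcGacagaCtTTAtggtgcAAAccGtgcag
Exon 3 (51 nt) keeps the reading frame, while exons 4 and 5 (73 nt each) shift it, so the last exon is read in a frame that ends early or one that runs on. The last exon up to the early stop (chr10:113165555-113165634) is shown with the stop codon in capitals, because it defines the short frame.
Last exon, short frame: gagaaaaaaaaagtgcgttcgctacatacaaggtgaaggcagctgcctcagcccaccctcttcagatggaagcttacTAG
The last coding bases of the 2 frames lie 338 bases apart.

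The short frame took 67.8% of TCF7L2 counts in COV504 (95% interval 51.0 to 79.4), 47.9% in OVKATE, 39.0% in COV362, 34.5% in OVMANA, 22.4% in SK-OV-3 and 16.9% in OVTOKO, against 16.7% and 7.5% in the IGROV-1 PromethION replicates. COV504 was the highest and OVTOKO at the level of IGROV-1. Cassette exon 5 took 59.3% in OVMANA, of 21 counts, and 2.2% to 19.9% in the other 9 libraries. Cassette exon 4 was at 6.3% in OVMANA and at 30.0% to 72.6% in the others. No TCF7L2 usage test passed: the adjusted p was 0.0715 in OVMANA (edgeR with Simes) and higher in the other lines. In IGROV-1 cassette exon 3 was at 12.0% and 9.7% on PromethION and 49.2% and 55.9% on MinION, and ENST00000536810, which lacks it, at 67.1% ± 2.5 against 21.2% ± 0.5 (SD, n = 2 each). Between instruments TCF7L2 usage had an adjusted p of 0.0766 and was not called, where 5.81% of 2979 genes were (0 of 2 members, 1 at an unadjusted p under 0.05). Taken alone, its transcript ENST00000369397, which holds exon 3, took 22.7% ± 5.4 on MinION and 2.8% ± 0.8 on PromethION (SD, n = 2 each; adjusted p = 0.0444 over transcripts, edgeR). It was 1 of 4 TCF7L2 transcripts in that test and is named for its low p, so it is a description beside the uncalled gene.

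**Figure D5:**
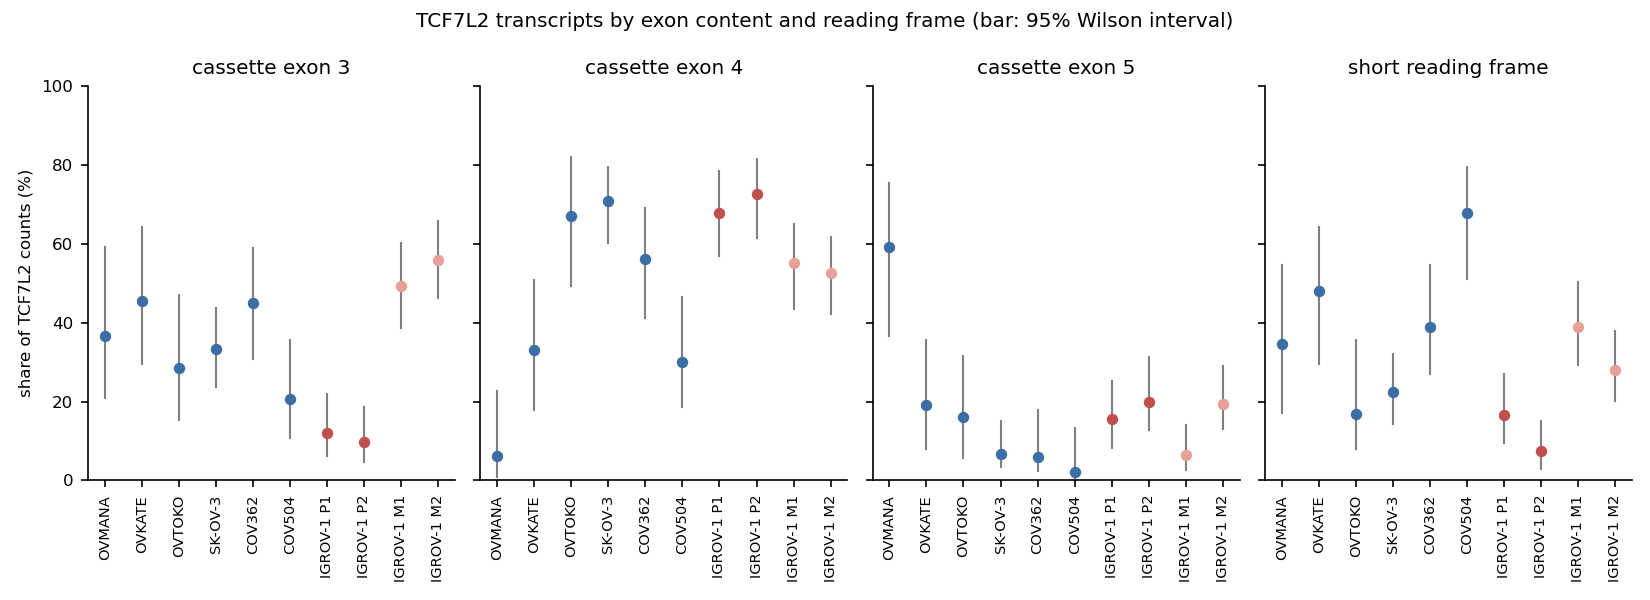
Share of TCF7L2 counts in percent by cassette exon and reading frame in each library; P1, P2, M1 and M2 are the IGROV-1 PromethION and MinION replicates. Cassette exon 3 is near 11% on PromethION in IGROV-1 (10.8 ± 1.6) and near 53% on MinION (52.6 ± 4.7).

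AXIN2, a feedback target whose protein scaffolds the destruction complex, shares its gene identifier with CEP112 in the files. The AXIN2 transcripts span 65528563 to 65561647 on the minus strand of chromosome 17. The joined identifier measured 3.84 and 3.01 CPM in the IGROV-1 PromethION replicates, 4.09 and 5.87 in the MinION replicates, 17.8 in OVKATE, 16.7 in SK-OV-3, 13.9 in OVTOKO, 13.8 in COV504, 3.53 in COV362 and 1.60 in OVMANA (3 counts). OVKATE, SK-OV-3, OVTOKO and COV504 were high, and COV362 and OVMANA at or below IGROV-1. The identifier was called higher in OVKATE, SK-OV-3, OVTOKO and COV504, by 2.06 ± 0.41 (SE), 2.04 ± 0.42, 2.08 ± 0.45 and 1.92 ± 0.42 on the log2 scale (adjusted p = 0.00359, 0.00496, 0.00802 and 0.00692, edgeR). With the 4 AXIN2 transcripts counted as a gene of their own, OVKATE alone was called (log2 change 2.28 ± 0.70, adjusted p = 0.0262), and OVTOKO, SK-OV-3 and COV504 were not (adjusted p = 0.78, 0.289 and 0.216). AXIN2's own transcripts passed the filter on low counts only through OVKATE, so their p-values are a description. All 4 calls of the joined identifier were also lost under DESeq2. AXIN2's own transcripts gave 16 counts in OVKATE and 2 to 8 in the 5 other lines, and CEP112's 20 to 26 in the 4 high lines and 1 to 4 in the others.

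Between MinION and PromethION in IGROV-1, 0 of the 7 members tested were called (edgeR; 0 at an unadjusted p under 0.05 and 0 with DESeq2), where 0.817% of 10041 genes were (0.11% higher and 0.707% lower on MinION). The smallest adjusted p among them was 0.478, for CTNNB1 (log2 change -0.19 ± 0.12). DKK1, LGR5 and SFRP1 were not tested there. With the replicate number as a block, CTNNB1 was called at the same log2 change of -0.19 (adjusted p = 0.045, edgeR). Far more genes in all were called under that block too, as given in the last section. The CTNNB1 result thus depends on whether equal replicate numbers share a culture, which the labels do not say.

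Of 93 other pathway genes, listed by role, 66 were tested. COV504 had 24 higher and 15 lower (all genes 24.0% and 19.6%), COV362 14 and 16 (23.7% and 18.8%), SK-OV-3 20 and 12 (22.0% and 19.8%), OVTOKO 13 and 12 (18.2% and 15.9%), OVKATE 17 and 18 (26.8% and 22.4%), and OVMANA 13 and 14 (18.9% and 16.5%). Their median log2 change lay between -0.13 and 0.19, beside -0.01 to 0.04 over all genes. Named by rule, the largest rises were CCN4, a secreted matricellular target, in OVMANA (8.55 against 0 CPM, at least 13.3-fold), APCDD1, a Wnt antagonist, in OVKATE (54.9, at least 85.4-fold), WNT5B, a ligand, in OVTOKO (15.0, at least 23.4-fold), TLE4, a co-repressor, in SK-OV-3 (6.58, at least 10.2-fold) and LGR6, a relative of LGR5, in COV362 (29.8, at least 46.3-fold) and COV504 (71.2, at least 111-fold). All these genes were at 0 in IGROV-1, so they entered the test only through other lines. Their rises are a description, and such genes are among those counted higher above. The largest falls were WLS, which carries Wnt ligands out of the cell, in OVMANA (0 against 57.8 CPM, at least 36.1-fold lower), CD44 in OVKATE (0 against 37.5, at least 25.3-fold lower) and WNT9A in OVTOKO (0 against 9.42, at least 5.43-fold lower). FZD5 fell by 3.80 ± 0.31 (SE) on the log2 scale in SK-OV-3. NKD2, an inhibitor of Dishevelled, was at 0 in COV362 and COV504 (at least 3.83-fold and 3.37-fold lower). It was 4.27 and 4.72 CPM in the IGROV-1 PromethION replicates and passed the filter on low counts only through IGROV-1. Its falls are therefore a description, and it is among the genes counted lower above in COV362 and COV504. Of the 66, 5 genes, FZD3, FZD5, LGR4, WLS and CCND1, were called lower in all 6 lines, as CTNNB1 was, and 0 higher in all 6 (all genes 2.62% and 2.69%); these 5 were picked with their values known.

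Ordered by level, the lines did not follow the same order in each member. SK-OV-3 led for SFRP1, FZD7 and TCF7L2, COV504 for DKK1 and DKK3, IGROV-1 for WNT5A and CTNNB1, COV362 for LGR5, OVMANA for WNT7A and OVKATE for the AXIN2 identifier. By their 95% counting intervals the top 2 lines were apart for DKK1, SFRP1, LGR5, FZD7 and CTNNB1. They overlapped for DKK3 (COV504 and SK-OV-3), WNT5A (IGROV-1 and COV362), WNT7A (OVMANA and COV362), TCF7L2 (SK-OV-3 and IGROV-1) and AXIN2 (OVKATE and SK-OV-3). The share of all genes with the top 2 lines apart was not computed, so this is a description of the members only.

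For each member the genes most alike over the 7 lines were found by Pearson r of log2(CPM + 1), with IGROV-1 as the mean of its PromethION libraries. WNT5A was most like CRTC2 (0.975), POGK (0.966) and NCL (0.957), and WNT7A most like UPP1 (0.958), SIPA1L2 (0.924) and GCNT1 (0.921). Among the antagonists, DKK1 was most like SPOCK1 (0.991), KLHDC3 (0.989) and FLI1 (0.986), DKK3 most like LIMA1 (0.978), STC1 (0.967) and MRPL28 (0.965) and SFRP1 most like KCNG1 (0.993), CSAD (0.985) and MYO1D (0.983). The receptor LGR5 was most like AFAP1-AS1 (0.998), ATOH8 (0.998) and MYOM1 (0.994), all of which were at 0 in the lines without LGR5, and FZD7 was most like TMEM263 (0.974), EIF4EBP1 (0.973) and PDS5A (0.97). Genes like CTNNB1 included PDXP (0.958) and FGD4 (0.957), and TCF7L2 was most like ATAT1 (0.982), CSNK1G2 (0.981) and MEX3D (0.98). The AXIN2 identifier was most like ST5 (0.97), IMPACT (0.966) and KATNAL1 (0.965). From 13 (WNT7A) to 63 (AXIN2) of 10750 genes reached an r of 0.9. With 7 lines these values describe likeness only.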

How the data were processed

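The 10 nanopore libraries of total RNA (column extraction, ligation kit, end repair of 30 min, per the labels' protocols) were used as deposited. The submitters' processing notes name minimap2 2.24-r1122 and GRCh38 (basecaller, quantifier, annotation: not given in the sources used here). As deposited by the authors, the files hold estimated counts per transcript, not whole numbers, and TPM values that equal CPM of those counts and so are not corrected for length. Transcript counts were summed per gene identifier and rounded. No column of per-sample values went unused (0).

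The members and lists were chosen with earlier results of these data known. All 10 members are named; of other pathway genes, the called gene with the largest rise and fall per line; for likeness the 3 nearest genes of those at 10 CPM or more (1 of them is not reported here). Tests were edgeR 4.0.16 quasi-likelihood (R 4.3.3, filterByExpr, TMM) over all 10 libraries, with 2 residual degrees of freedom, and for instruments over the 4 IGROV-1 libraries; usage was tested with diffSpliceDGE and Simes. Scripts were tested on simulated data. Alternatives were DESeq2 1.42.0, its size factors, no filter, PromethION libraries only, all 4 IGROV-1 libraries as reference, joined identifiers left out, AXIN2's own transcripts (chosen after seeing the data), a stricter transcript filter, a replicate block and each IGROV-1 replicate left out. Floors are 3 counts, and intervals are 95% (exact Poisson or binomial, Wilson for shares).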

Additional observations from a re-analysis of the deposited data

How the results depend on the processing

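Of the 40 calls of members, 20 were lost under DESeq2, 0 with its size factors in edgeR, 3 with PromethION libraries only, 2 with all 4 IGROV-1 libraries as reference, 3 with no filter, 3 with AXIN2's own transcripts, and 9 and 7 without MinION replicate 1 and 2, and 3 and 2 without PromethION replicate 1 and 2. Under DESeq2 members called numbered 2 in OVMANA, 1 in OVKATE, 5 in SK-OV-3 and 4 in COV504 (6, 5, 8 and 9 in edgeR), and other pathway genes 5 in OVMANA, 14 in OVKATE, 5 in OVTOKO, 10 in SK-OV-3, 6 in COV362 and 10 in COV504 (27, 35, 25, 32, 30 and 39). Over all genes DESeq2 called 1305 to 2117 in the 6 comparisons, against 4443 to 6405 in edgeR; the cause was not tested. Leaving out each IGROV-1 replicate gave 17 to 30 other pathway genes in OVMANA, 12 to 27 in OVTOKO and 16 to 30 in COV362, the lowest in each case without MinION replicate 1. The CTNNB1 usage call in OVMANA and in COV504 went from 1 to 0 with PromethION libraries only and ranged from 0 to 0 over the replicates left out; in OVTOKO 1 member passed with transcripts of at least 10 CPM. Depth limits FZD7, SFRP1 and AXIN2's own transcripts, which rest on 14, 18 and 6 counts over both IGROV-1 PromethION libraries.

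Some uncalled log2 changes reversed in sign. Over the replicates left out, WNT5A in COV362 ranged from -1.01 to 0.25 and AXIN2 in COV362 from -0.08 to 0.26, and AXIN2 was -0.22 with all 4 IGROV-1 libraries as reference. Between instruments, WNT5A ranged from -0.46 to 0.98 (-0.27 without PromethION replicate 1), WNT7A from -0.30 to 0.54 (-0.10 without MinION replicate 1) and FZD7 from -0.25 to 0.60.

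With the replicate number as a replicate block in the instrument comparison, 1 member was called (CTNNB1, log2 change -0.19, adjusted p = 0.045 in edgeR), 6 other pathway genes and 1 member by usage, against 0 each without it, and 1979 genes in all against 82. The labels do not say that equal numbers share a culture; replicate 2 minus replicate 1 correlated between instruments at r = 0.4 over 9376 genes.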
